A study of Mus musculus with 12 samples.

Results

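The genotype difference in the early response to antigen receptor stimulation was measured as 1 contrast per gene: the change after 3 h of anti-IgM in IkL/L B cells minus the same change in wild-type (WT) B cells. It uses 8 of the 12 arrays of the series, chosen by their labels, in 4 groups of 2 arrays: WT without stimulus, WT with anti-IgM for 3 h, IkL/L without stimulus and IkL/L with anti-IgM for 3 h. All cells were follicular B cells from the spleens of C57Bl/6 mice aged 6 weeks, gated as B220-positive, CD23-high and CD21-low at over 98% purity. They were cultured for 3 h in medium alone, or in medium with goat anti-mouse IgM F(ab')2 at 10 µg/ml, an antibody that clusters the B cell receptor (BCR) on the surface. The 4 arrays at 12 h of anti-IgM lie outside the contrast and are used for the spread of the values and for a look at the later time. IkL/L mice are homozygous for IkL, an allele of Ikzf1 known to lower the activity of the zinc finger transcription factor Ikaros. The allele acts in every cell that would use the gene, from before B cell development on, so the mature cells differ from WT cells before any stimulus. The labels give 2 independent experiments and do not say whether cells of several mice were pooled, so p-values measure the spread between these arrays.

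Ikaros binds DNA through zinc fingers, works both as a repressor, with the NuRD chromatin remodelling complex, and as an activator, and is needed for lymphocyte development. In mature B cells low Ikaros activity is known to lower the threshold for activation through the BCR. Cross-linked IgM signals through Syk, Btk and phospholipase C to calcium, the ERK kinases and NF-kB, and within hours this induces immediate early genes, Myc and activation markers while genes of the resting cell are switched off.

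In these data the contrast reads as follows. A positive value means that the IkL/L response lay above the WT response, and all values are log2 values of the deposited signal, so that a value of 1 means 2 times the signal. Of 18193 genes tested, 7 differed in their response at an adjusted p under 0.05, or 0.0385%. Axl, Rflnb, Fjx1, Xcl1 and C730049O14Rik had positive values (0.0275% of genes), and Il16 and Tmem176b had negative values (0.011%). When the replicate number within each genotype entered the fit as a block, 27 did, or 0.148%, with 13 positive (0.0715%) and 14 negative (0.077%). All 7 were among the 27. With a replicate block shared by both genotypes 11 passed, the 7 and Rnf125, Dop1b, Gstt2 and Mreg, and the others of the 27 did not. RefSeq lists C730049O14Rik as a synonym of Rnf125, also among the 27, so the 27 probe sets stand for 26 genes. The count of 7 rests on all 8 arrays: it was 1 (Tmem176b) without IkL/L unstimulated replicate 1, 1 (Rnf125) without IkL/L unstimulated replicate 2, and 0 without any other single array of the 8 or without either replicate of a genotype in all conditions. No contrast of the 27 changed sign when an array was left out. The 27 were chosen on these same arrays for contrasts large beside their spread, so kept signs are no support.

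Motifs for Ikaros and, in the loose form TGANTCA, for the activation factor AP-1 were counted in the start regions of the called genes. Of these regions 3 are shown, chosen after the counts were seen. Those of Lif and Prdm1 are the only 2 of 29 windows that hold both motifs, and that of Axl holds neither. The loose form takes any middle base. It reads TGACTCA in Lif and TGAATCA in Prdm1, and the latter departs from the common AP-1 site. The windows of Tmem176b, Lxn and Fcrla, whose contrasts were lower than that of Prdm1, hold neither as well. Each runs from 250 bases before to 50 bases after a RefSeq transcript start on GRCm38.p6, 5′ to 3′ on the gene's strand, at chr11:4257318-4257617 (plus strand) for Lif, chr7:25788684-25788983 (minus strand) for Axl and chr10:44458699-44458998 (minus strand) for Prdm1. Capitals mark TGGGAA, the core that Ikaros binds, on either strand, so it reads TTCCCA where it lies on the opposite strand.
Lif: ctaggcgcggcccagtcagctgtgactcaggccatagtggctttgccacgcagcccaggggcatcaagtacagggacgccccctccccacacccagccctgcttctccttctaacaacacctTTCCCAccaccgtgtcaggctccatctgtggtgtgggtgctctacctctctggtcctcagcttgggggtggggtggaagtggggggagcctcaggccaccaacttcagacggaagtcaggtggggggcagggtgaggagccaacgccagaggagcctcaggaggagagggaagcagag
Axl: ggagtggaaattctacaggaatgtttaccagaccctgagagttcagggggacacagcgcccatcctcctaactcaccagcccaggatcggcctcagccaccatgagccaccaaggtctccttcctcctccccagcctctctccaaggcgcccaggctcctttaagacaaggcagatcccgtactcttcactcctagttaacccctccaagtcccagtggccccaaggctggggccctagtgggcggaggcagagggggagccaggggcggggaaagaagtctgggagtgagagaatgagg
Prdm1: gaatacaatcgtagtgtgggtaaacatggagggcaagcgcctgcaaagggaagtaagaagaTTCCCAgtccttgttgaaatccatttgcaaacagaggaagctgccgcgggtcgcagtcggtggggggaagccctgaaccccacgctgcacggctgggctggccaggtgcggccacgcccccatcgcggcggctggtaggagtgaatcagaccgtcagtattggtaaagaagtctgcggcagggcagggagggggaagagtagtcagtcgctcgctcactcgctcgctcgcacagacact
RefSeq windows matched 20 of the 27 probe sets by symbol, with 29 windows in all. TGGGAA was in 8 of these 29, and in 25.6% of all 32851 windows. The loose AP-1 form TGANTCA was in 3 of the 29, and in 7.81% of all windows. Both strands were searched, and a match describes the letters only.

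Markers of cell types were read on all arrays. All 10 measured markers of follicular B cells were above 4.21 on every array, a floor set 1 above the highest array median (medians ran from 3.12 to 3.21), with means over the list from 8.57 to 10.4. Of T and NK cell markers 13 of 15, and of erythroid and platelet markers 6 of 8, were under the floor on every array. Of marginal zone and B1 cell markers only 1 of 12, and of plasma cell markers only 1 of 8, was under it on every array. Means over these 2 lists ran from 6.14 to 6.57 and from 6.04 to 6.85. The lists thus do not set follicular cells apart from other cells of the B lineage, whose share was not tested. Of myeloid and neutrophil markers 10 of 19 were under the floor on every array. The mean over this list ran from 3.19 to 3.77 in the 4 WT arrays of the contrast and from 3.52 to 4.17 in the 4 IkL/L arrays, and the part of such cells in the results was not tested. Genes of the type I interferon response set the WT replicates apart: the mean over 22 of them was 7.3 and 7.08 in WT replicate 1 (unstimulated and 3 h), and 4.92 and 4.19 in WT replicate 2. In IkL/L cells it lay between 5.38 and 6.11. In the contrast 0 of these 22 genes passed the threshold in either fit or had an unadjusted p under 0.05 in limma, and their median contrast, 0.23, was the highest of the 40 lists read here. In bulk samples, fewer cells of a type and less RNA per cell cannot be told apart.

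The targeted gene comes first. Ikzf1 read 9.85 and 9.83 in unstimulated WT cells and 10.00 and 9.94 in unstimulated IkL/L cells, so its probe set was not lower without stimulus. At 3 h it read 8.93 and 9.10 in WT against 8.58 and 8.08 in IkL/L cells (adjusted p = 0.193 without and 0.0414 with the block). The contrast was -0.81 (SE 0.31, n = 2 per group), with adjusted p = 0.785 without the block and 0.291 with it in limma. The place of the probe set relative to the altered part of the allele is not known here, so these values do not check the genotype.

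Most of the response was common to both genotypes. At 3 h 3529 genes (19.4%) changed in WT cells and 3719 (20.4%) in IkL/L cells. Of these 2824 changed the same way in both, which is 80.0% of the WT list and 75.9% of the IkL/L list. A single gene changed in opposite ways: Alkbh8, a tRNA modification enzyme gene named here after its values were seen, with responses of -0.52 in WT and 0.73 in IkL/L cells. The count in WT was 1771 without WT replicate 1 and 1868 without WT replicate 2, and the one in IkL/L cells was 1963 and 2171 without the replicates of that genotype. Leaving aside 5% of genes at each end, the contrast lay between -0.47 and 0.44, with 96 genes over 1 and 65 under -1. The median contrast was -0.041, and 57.3% of genes had a negative value.

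**Figure D1:**
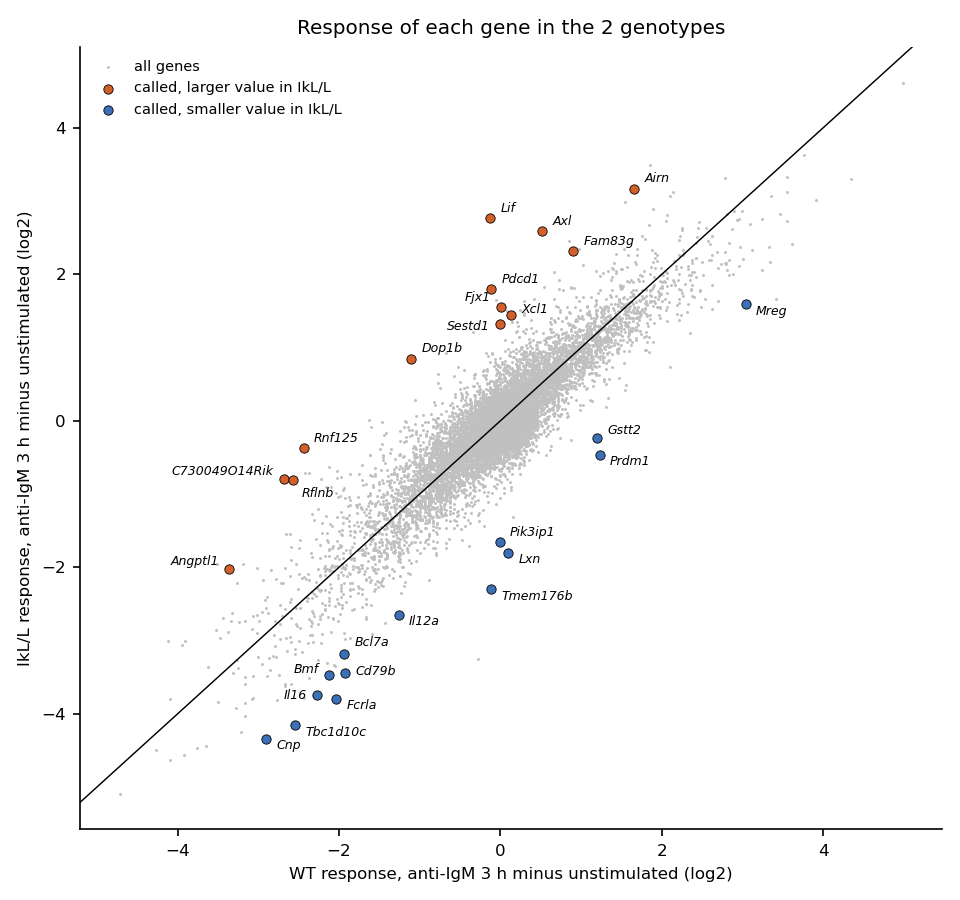
Response to 3 h of anti-IgM (anti-IgM minus unstimulated, log2) of each of 18193 genes in WT cells (horizontal axis) and IkL/L cells (vertical axis); coloured points are the 27 probe sets past the threshold with the replicate block, and the line marks equal responses. Lif, Axl and Pdcd1 lie above the line with responses of 2.77, 2.59 and 1.80 in IkL/L cells, and Tmem176b lies below it with -2.30.

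The genes were sorted by the mean response of both genotypes, an estimate that in this design is uncorrelated with the contrast. Among 122 genes whose mean response was a rise of 2 or more on the log2 scale, the median contrast was -0.25, and 71.3% had a negative value, against 57.3% of all genes. The median rise of these 122 was 2.49 and 2.41 in the WT replicates and 2.39 and 2.01 in the IkL/L replicates. Among 229 genes with a mean fall of 2 or more, the median contrast was -0.28 and 66.4% were negative. Their median fall was -2.33 and -2.38 in the WT replicates and -2.59 and -2.62 in the IkL/L replicates. The replicates of the genotypes did not overlap in either set, but the nearest of the rising set, 2.41 and 2.39, lay close. Median responses over all genes were apart as well, at 0.02 for each WT replicate against -0.03 and -0.02 for IkL/L. The lack of overlap is thus not particular to these sets. With a limit of 1 the median contrasts were -0.08 for 842 rising genes and -0.12 for 985 falling genes. These are descriptions with no test.

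Each called gene was then placed by where its genotypes differed. A gene was set under stimulated cells where the genotype difference at 3 h was at least 2 times that without stimulus, and under unstimulated cells in the reverse case, a rule chosen after the values were seen. By this rule 19 of the 27 differed mainly in stimulated cells (9 with positive and 10 with negative contrasts), 7 mainly in unstimulated cells (4 positive, 3 negative) and 1, Il12a, in neither. At the threshold 19 of 27 differed between the genotypes at 3 h, where 1.7% of all genes did, and 8 of 27 without stimulus, where 1.13% did. These comparisons share their arrays with the contrast that chose the genes, so nothing is read from those shares.

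**Figure D2:**
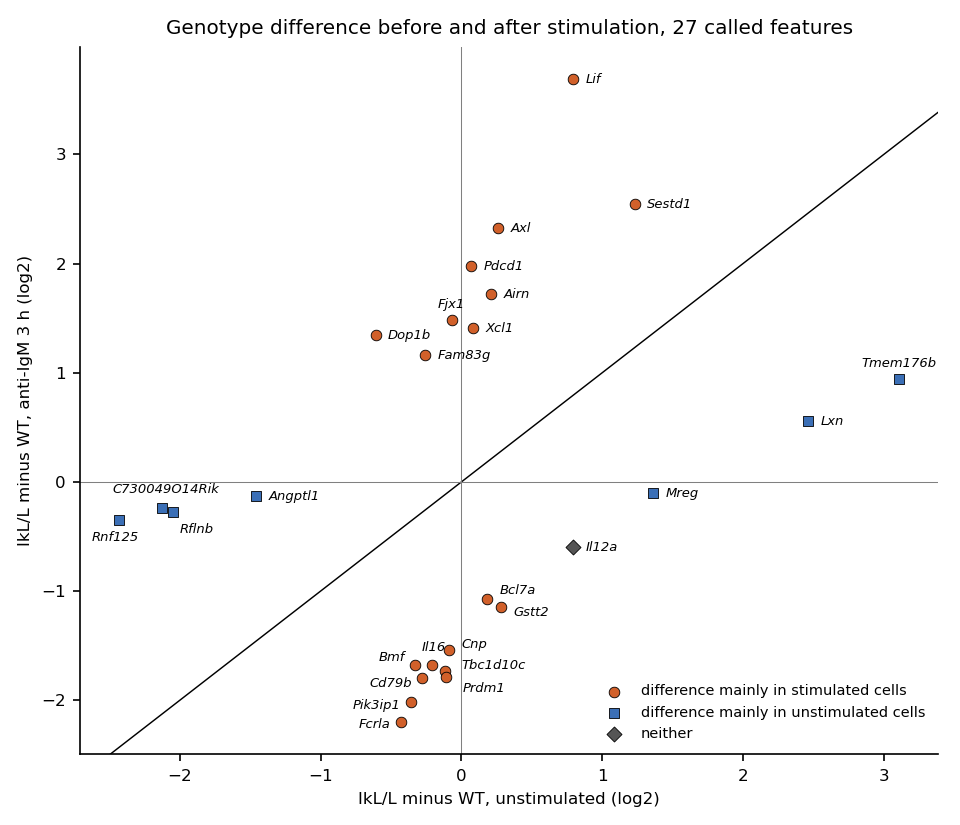
Genotype difference (IkL/L minus WT, log2) without stimulus (horizontal axis) and after 3 h of anti-IgM (vertical axis) for the 27 called probe sets; the vertical distance from the diagonal line is the contrast. Most orange points (difference mainly in stimulated cells) lie along the vertical axis, and the blue squares lie along the horizontal axis, with Tmem176b at 3.11 and Rnf125 at -2.43 without stimulus.

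The first group held genes induced in IkL/L cells and little or not at all in WT cells at 3 h. Axl encodes a receptor tyrosine kinase of the TAM family that binds Gas6. It read 2.81 and 2.89 in unstimulated and 3.46 and 3.28 in stimulated WT cells, and 3.14 and 3.07 in unstimulated and 5.59 and 5.80 in stimulated IkL/L cells. Of the 8 arrays only the stimulated IkL/L arrays were above the floor. Axl was at least 2.8-fold higher there than in stimulated WT cells (contrast 2.07, SE 0.22, adjusted p = 0.0263 without and 0.0145 with the block). Among the settings tried in place of the unblocked fit, it passed in 9 of 12, and in 0 of the 8 fits with 1 array left out, where its adjusted p ran from 0.0644 to 0.264.

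Lif, a cytokine of the IL-6 family, had the largest positive value of the 27. It read 3.20 and 2.95, then 3.12 and 2.77, in WT cells without and with anti-IgM. The IkL/L arrays read 3.39 and 4.34 without and 6.49 and 6.78 with stimulus. The stimulated IkL/L arrays stood above all others, and 1 unstimulated IkL/L array (replicate 2) was just over the floor. Lif rose at least 5.14-fold in IkL/L cells (log2 2.77, adjusted p = 0.000355), and the contrast was 2.90 (SE 0.50, adjusted p = 0.185 without and 0.0061 with the block). A further Lif probe set stayed at or under 3.12 on the 8 arrays, with a contrast of 0.02.

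Pdcd1 encodes the inhibitory receptor PD-1. In WT cells it read 3.58 and 3.24 without and 3.27 and 3.32 with anti-IgM, all under the floor. Its signal in IkL/L cells went from 3.22 and 3.73 to 5.02 and 5.54, at least 2.09-fold, and the groups did not overlap. The contrast was 1.91 (SE 0.35), with adjusted p = 0.185 without and 0.0278 with the block. Xcl1, the chemokine lymphotactin, showed the same form at a lower level. It was at 3.25 and 3.34, then 3.47 and 3.37, in WT cells and at 3.47 and 3.28, then 4.72 and 4.93, in IkL/L cells. Its contrast of 1.33 (SE 0.17) passed both fits, with adjusted p = 0.0419 and 0.0278.

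Fjx1, a homologue of the fly four-jointed protein, likewise read 3.20 and 3.41, then 3.35 and 3.27, in WT cells. The IkL/L arrays read 3.22 and 3.26, then 4.71 and 4.88. The WT response was 0.01 and the IkL/L response 1.55, and the contrast of 1.55 (SE 0.19) passed both fits (adjusted p = 0.0419 and 0.0145). Sestd1, which encodes a protein with a lipid-binding and a spectrin domain, was already above the floor in unstimulated IkL/L cells, at 4.48 and 4.66 against 3.49 and 3.19 in WT. It read 5.98 and 5.79 in stimulated IkL/L cells and stayed at 3.37 and 3.31 in stimulated WT cells. Its contrast was 1.32 (SE 0.24, adjusted p = 0.189 without and 0.0482 with the block).

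Airn and Fam83g rose in both genotypes and more in IkL/L cells. Airn is the imprinted noncoding RNA transcribed across Igf2r. It rose from 3.26 and 3.17 to 4.88 and 4.88 in WT cells, and from 3.32 and 3.54 to 6.70 and 6.50 in IkL/L cells. Stimulated IkL/L cells held 3.29-fold more than stimulated WT cells (contrast 1.50, SE 0.24, adjusted p = 0.136 without and 0.0463 with the block). Fam83g rose by 0.90 in WT and by 2.32 in IkL/L cells (contrast 1.42, SE 0.32, adjusted p = 0.379 and 0.0447). Dop1b, a homologue of a membrane traffic protein, moved in opposite directions. It read 6.27 and 6.60, then 5.02 and 5.63, in WT cells, a fall with adjusted p = 0.0227. The IkL/L arrays read 5.74 and 5.92, then 6.34 and 7.01, a difference of 0.85 that passed with the block (adjusted p = 0.00127) and not without it (0.0717). The contrast was 1.96 (SE 0.42, adjusted p = 0.329 without and 0.0145 with the block).

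**Figure D3:**
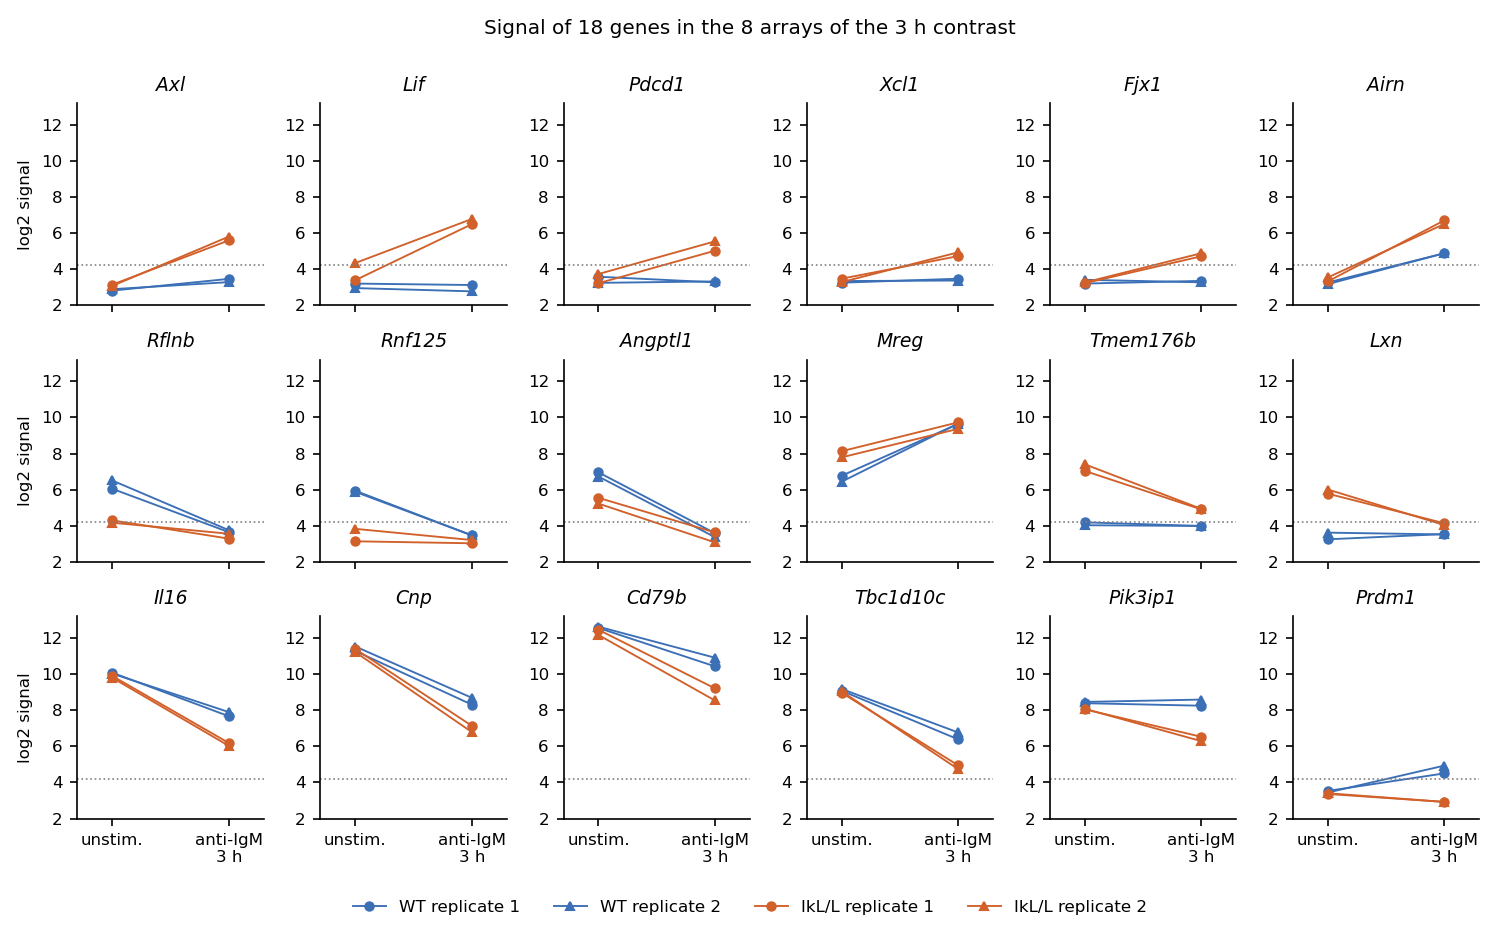
Deposited log2 signal (vertical axis) of 18 called genes on the 8 arrays, without stimulus and after 3 h of anti-IgM; lines join arrays with the same replicate number, blue for WT and orange for IkL/L, and the dotted line is the floor of 4.21. Axl rises above the floor in IkL/L cells only, Tmem176b falls from 7.04 and 7.41 in IkL/L cells while WT stays at or under the floor, and Il16 falls further in IkL/L cells.

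A second set of positive values came from genes that resting WT cells had and resting IkL/L cells lacked or had less of. They fell in WT cells to under the floor, and resting IkL/L cells were close to or under it beforehand, except for Angptl1. Rflnb encodes refilin B, a filamin-binding protein. It read 6.05 and 6.51 in unstimulated and 3.65 and 3.76 in stimulated WT cells, and 4.30 and 4.17, then 3.29 and 3.56, in IkL/L cells. In unstimulated cells WT was at least 4.08-fold higher. The contrast was 1.76 (SE 0.23, adjusted p = 0.0419 and 0.0145), and a further probe set gave 1.26.

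Rnf125 encodes an E3 ubiquitin ligase. It read 5.94 and 5.88, then 3.47 and 3.47, in WT cells and 3.14 and 3.83, then 3.03 and 3.21, in IkL/L cells. The probe set named C730049O14Rik, the same gene by the annotation, read 6.36 and 6.35, then 3.77 and 3.58, in WT and 4.45 and 4.01, then 3.53 and 3.33, in IkL/L cells. Both fell in WT cells to under the floor, with contrasts of 2.07 (SE 0.28, adjusted p = 0.059 and 0.0218) and 1.88 (SE 0.24, adjusted p = 0.0419 and 0.0198). Angptl1, a secreted angiopoietin-like protein, was well above the floor in both resting genotypes, at 6.96 and 6.73 in WT against 5.55 and 5.23 in IkL/L cells. It was under the floor on all 4 stimulated arrays, so the 2 genotypes could not be compared there. Its contrast was 1.33 (SE 0.36, adjusted p = 0.554 without and 0.0278 with the block).

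Signal under the floor has no measured order, which bounds the responses of such genes. Of the 27 probe sets, 15 had at least 1 of the 8 arrays under the floor, 12 of the 13 positive and 3 of the 14 negative. With all values raised to the floor before the fit the contrast was still above 0 for all 13 and below 0 for all 14. This was largely fixed beforehand, so it is no support. The 12 with no array under the floor keep their values. Where only 1 of the 4 groups lay above it, as for Axl and Prdm1, the sign could not change. Sizes did move, for example from 1.55 to 0.59 for Fjx1 and from 1.76 to 2.03 for Rflnb. The next genes by unadjusted p had the same form and did not pass either fit. Hepacam2 had a contrast of 1.49 (adjusted p = 0.136 and 0.0577), the bacterial peptidoglycan sensor Nod1 1.33 (0.134 and 0.0614) and the vesicle coat gene Sec24d 1.15 (0.136 and 0.052). In each, unstimulated WT arrays were over the floor and the other 6 arrays under it.

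Among the 14 negative contrasts, 3 came from genes that were higher in resting IkL/L cells. Tmem176b, an intracellular membrane channel gene best known from dendritic cells, read 7.04 and 7.41 in unstimulated IkL/L cells and 4.91 and 4.94 after stimulation. In WT cells it stayed at 4.19 and 4.03, then 3.99 and 3.99, under the floor on all 4 arrays. It was at least 8.07-fold higher in resting IkL/L than in resting WT cells, and at least 1.64-fold higher at 3 h. The contrast was -2.17 (SE 0.22, adjusted p = 0.0263 without and 0.0145 with the block).

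Lxn, the carboxypeptidase inhibitor latexin, fell from 5.78 and 6.01 to 4.14 and 4.04 in IkL/L cells and was under the floor on all WT arrays (3.25 and 3.62, then 3.54 and 3.52). Its contrast was -1.90 (SE 0.34, adjusted p = 0.185 and 0.0491). Mreg encodes melanoregulin, a protein of vesicle transport, and was above the floor on all arrays. It rose from 6.77 and 6.44 to 9.64 and 9.66 in WT cells, 8.25-fold, and from 8.13 and 7.79 to 9.73 and 9.37 in IkL/L cells, 3.01-fold. The genotypes overlapped at 3 h, so the contrast of -1.45 (SE 0.25, adjusted p = 0.184 and 0.0198) came from the start level. Marveld1, which did not pass either fit, had 4.52 and 4.72 in unstimulated IkL/L cells and under the floor on the other 6 arrays (contrast -1.07, adjusted p = 0.136 and 0.0715).

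A further 8 negative contrasts were deeper falls in IkL/L cells of genes that fell in both genotypes. For these all 8 arrays were above the floor, and between resting genotypes their adjusted p ran from 0.129 to 0.953 without the block. With it Il12a differed at rest (adjusted p = 0.0203), and for the other 7 it ran from 0.207 to 0.841. Il16 encodes the precursor of interleukin 16, a chemoattractant of CD4-positive cells. It read 10.08 and 10.03 in resting WT and 9.90 and 9.80 in resting IkL/L cells. At 3 h it read 7.67 and 7.90 in WT against 6.19 and 6.03 in IkL/L cells, so the groups were apart. The fall was 4.82-fold in WT and 13.3-fold in IkL/L cells (contrast -1.47, SE 0.19, adjusted p = 0.0419 without and 0.0198 with the block). A further Il16 probe set gave -1.05.

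Cd79b encodes the Ig-beta chain through which the BCR signals. It fell from 12.56 and 12.63 to 10.43 and 10.91 in WT cells and from 12.46 and 12.17 to 9.21 and 8.54 in IkL/L cells. Its level at 3 h was 3.48-fold lower in IkL/L cells (contrast -1.52, SE 0.36, adjusted p = 0.427 without and 0.0304 with the block). Tbc1d10c, the Rab GTPase activator carabin that also restrains calcineurin and Ras, fell from 9.08 and 9.18 to 6.39 and 6.77 in WT cells. In IkL/L cells it fell from 8.97 and 9.05 to 4.95 and 4.74, which is 17.9-fold against 5.86-fold (contrast -1.61, SE 0.25, adjusted p = 0.136 and 0.0278). Fcrla, an intracellular Fc receptor-like protein of B cells, fell 4.1-fold in WT and 13.9-fold in IkL/L cells (contrast -1.76, SE 0.36, adjusted p = 0.295 and 0.0352).

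The same held for Cnp, the cyclic nucleotide phosphodiesterase known from myelin, which fell 7.48-fold in WT and 20.3-fold in IkL/L cells. It went from 11.28 and 11.53 to 8.31 and 8.69 in WT and from 11.39 and 11.22 to 7.14 and 6.79 in IkL/L cells (contrast -1.44, SE 0.28, adjusted p = 0.233 and 0.0198). Bmf, a pro-apoptotic member of the BCL2 family, went from 8.66 and 9.13 to 6.53 and 7.02 in WT and from 8.53 and 8.60 to 4.99 and 5.20 in IkL/L cells. Its contrast was -1.35 (SE 0.32, adjusted p = 0.427 and 0.023). Bcl7a, a subunit of SWI/SNF chromatin remodellers, fell 3.85-fold in WT and 9.16-fold in IkL/L cells (contrast -1.25, SE 0.24, adjusted p = 0.2 and 0.0419). Il12a, a subunit of the cytokine IL-12, fell from 6.38 and 5.89 to 4.90 and 4.85 in WT cells and from 7.05 and 6.80 to 4.29 and 4.27 in IkL/L cells. It was thus higher in IkL/L cells before and lower after stimulation, with adjusted p = 0.129 and 0.234 for these differences without the block and 0.0203 and 0.0518 with it, while the contrast of -1.39 passed with the block (SE 0.29, adjusted p = 0.312 without and 0.0491 with it).

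The remaining 3 negative contrasts were those of Pik3ip1, Prdm1 and Gstt2. Pik3ip1 encodes an inhibitor of phosphoinositide 3-kinase that resting lymphocytes hold. WT arrays read 8.39 and 8.46, then 8.25 and 8.59. In IkL/L cells it fell from 8.05 and 8.08 to 6.53 and 6.29, 3.16-fold (contrast -1.65, SE 0.27, adjusted p = 0.136 and 0.0216). A further probe set gave -1.43.

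Prdm1 encodes Blimp-1, the repressor that drives plasma cell differentiation. Its signal rose from 3.53 and 3.44 to 4.50 and 4.93 in WT cells, at least 1.42-fold, and read 3.36 and 3.40, then 2.92 and 2.92, in IkL/L cells. Only the 2 stimulated WT arrays were above the floor. The contrast was -1.69 (SE 0.31, adjusted p = 0.185 without and 0.0426 with the block). Gstt2, a glutathione S-transferase, rose from 4.65 and 5.27 to 5.98 and 6.33 in WT cells and read 5.19 and 5.30, then 4.85 and 5.16, in IkL/L cells (contrast -1.43, SE 0.31, adjusted p = 0.346 and 0.0198).

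**Figure D4:**
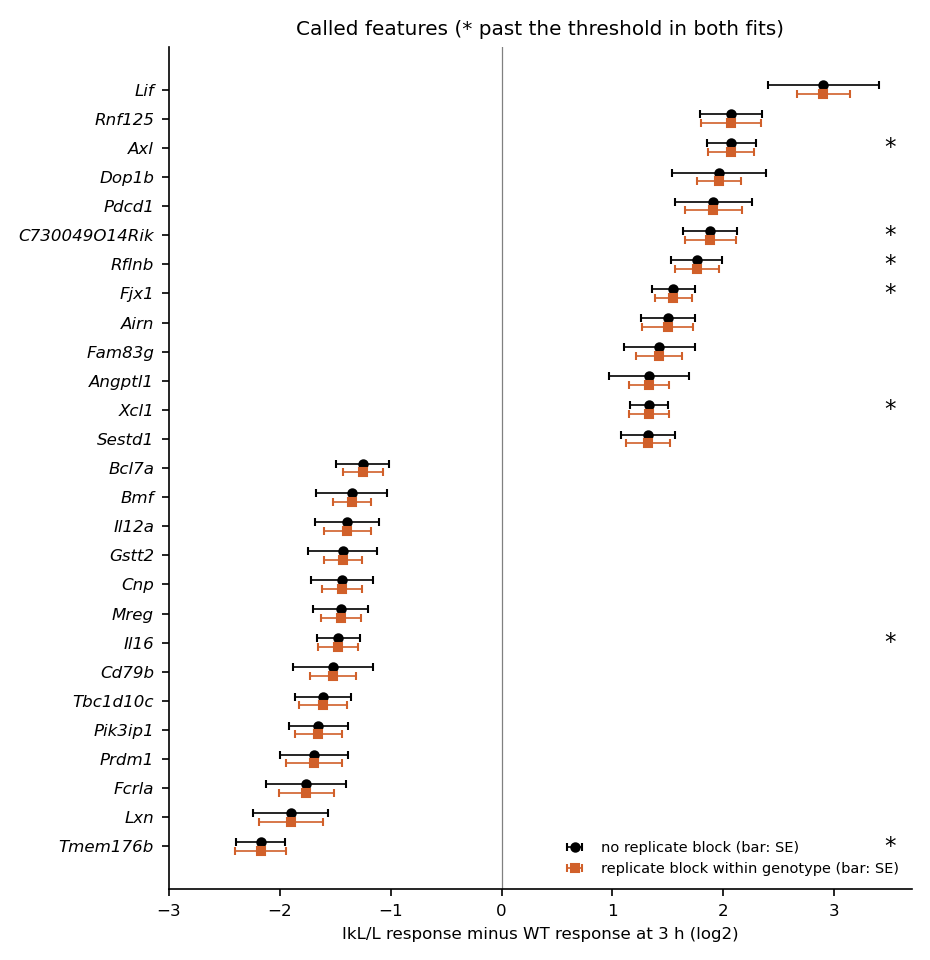
Contrast of the 27 called probe sets (horizontal axis, log2) with its standard error in the fit without the block (black) and with the replicate block within genotype (orange). Lif has the largest value, 2.90, and asterisks mark the 7 that passed both fits, among them Axl with 2.07 and Tmem176b with -2.17.

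Further probe sets gave a second reading for a part of the called genes. For 15 of the 27 there were 29 others, of which 10 were over the floor on at least 1 array. Of these 10, 5 had the sign of the chosen probe set and an unadjusted p under 0.05, in Airn, Fcrla, Il16, Pik3ip1 and Rflnb. The other 5 did not reach it. Those of Bmf (-0.03) and a further one of Fcrla (-0.01) were close to 0, those of Cnp were -0.76 and -0.66, and that of Fam83g was 0.74. Probe sets under the floor on all 8 arrays had signs in both directions. The chosen probe set is the brightest of its gene.

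The arrays at 12 h, which do not enter the contrast, were set beside these values. They do enter the estimate of the spread by which the 27 were called, so nothing is read from the shares of called genes at 12 h. A genotype difference at 12 h passed the threshold in 3 of the 27, against 0.616% of all genes. Axl read 4.56 and 4.14 in WT against 7.22 and 7.04 in IkL/L cells, and the difference was 2.78 (SE 0.16, adjusted p = 4.18e-05). Tmem176b read 6.84 and 6.47 in IkL/L cells and 4.04 and 4.19 in WT (difference 2.54, SE 0.16, adjusted p = 8.69e-05). Lxn likewise read 5.82 and 5.08 in IkL/L and 3.90 and 4.34 in WT cells (difference 1.33, SE 0.24, adjusted p = 0.0427). For both, signal in IkL/L cells was thus higher at 12 h than at 3 h. Unstimulated cells were cultured for 3 h only, so the 12 h arrays have no unstimulated match. The change from 3 h to 12 h was not tested.

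With the block 7 of the 27 differed at 12 h, against 2.57% of all genes, and the others were Lif, Pdcd1, Bmf and Il16. Pdcd1 read 6.48 and 7.03 in WT against 7.78 and 8.03 in IkL/L cells at 12 h, so the WT arrays were then above the floor too (difference 1.14, adjusted p = 0.0923 without and 0.0125 with the block). Lif was back at 3.23 and 4.28 in IkL/L cells and at 3.03 and 2.75 in WT. Fjx1 and Xcl1 were under the floor on all 4 arrays at 12 h, and so were Airn and Prdm1. Cnp, with 9.27 and 9.37 in WT against 9.54 and 9.06 in IkL/L cells, and Bcl7a had small differences at 12 h (-0.01 and -0.13).

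Lists of genes for the pathways of the response were read by counts and medians. They were taken from general knowledge, and the single members named below, other than those called, were chosen after their values were seen. Regulators that feed back on ERK signalling had a median contrast of 0.17 over 16 genes, against -0.041 over all genes, with 0 past the threshold in either fit. Their median response was 0.25 and 0.20 in the WT replicates and 0.69 and 0.76 in the IkL/L replicates. These did not overlap, which also held for the medians over all genes. In this list 5 had an unadjusted p under 0.05, all positive, where 5.65% of all genes had one in either direction. They were the ERK pathway inhibitors Spry1 (1.60) and Spry2 (1.11), the phosphatases Dusp10 (1.20) and Dusp5 (1.18), and Etv3 (0.83). Dusp10 is better known for acting on kinases other than ERK. Dusp10 had 6, Spry1 5 and Spry2 4 of 8 arrays under the floor, so their differences are not exact sizes.

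NF-kB subunits and targets had values of the opposite sign. Of 22 measured genes 21 had a negative contrast, beside 57.3% of all genes, with a median of -0.35 and 0 past the threshold in either fit. The median response was 0.82 and 0.66 in the WT replicates and 0.54 and 0.53 in the IkL/L replicates. The largest values were those of the chemokines Ccl3 (-1.17, with responses of 3.34 in WT and 2.17 in IkL/L) and Ccl4 (-0.80). Both were higher in IkL/L than in WT cells without stimulus, by 2.65 and 1.60, and still at 3 h, by 1.48 and 0.81. A negative contrast was thus a smaller rise for them and not a lower level. Nfkbid, in turn, was lower in IkL/L cells at 3 h (-0.64). Of the 22, 0 had an unadjusted p under 0.05. Immediate early factors had a median of -0.18 over 27 genes, with 0 past the threshold in either fit and 6 at an unadjusted p under 0.05, 5 of them negative. Of these 5, Egr4 (-0.68) was under the floor on all 8 arrays, so its direction was not measured. The positive gene was Klf6 (0.72). The AP-1 subunit gene Fosl2 rose by 3.42 in WT and by 1.66 in IkL/L cells (contrast -1.76) and was 2.59 higher in resting IkL/L cells. Egr3 had -0.90 and Nr4a1 -0.76. Nr4a1 was 0.65 higher in resting IkL/L than in resting WT cells, and the difference at 3 h was -0.1. Fosl1, another AP-1 subunit gene, lay on the other side, at 1.43 (unadjusted p = 0.0772), with 4 of 8 arrays under the floor.

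BCR signalling components had a median of -0.19 over 26 genes, and 1, Cd79b, passed with the block. At an unadjusted p under 0.05 were 4 negative genes, Cd79b, Pik3cd (-1.29), Btk (-0.69) and Blnk (-0.60), and 1 positive gene, Malt1 (0.89). Inhibitory regulators of the BCR had a median of -0.09 over 29 genes with 0 past the threshold in either fit and 4 at an unadjusted p under 0.05. The inhibitory receptors Pirb (1.13), Pecam1 (0.95) and Btla (0.61) and the adaptor Lax1 (0.87) were these 4. In unstimulated cells all 4 were lower in IkL/L than in WT, with differences from -1.50 (Lax1) to -1.02 (Btla), and at 3 h the differences ran from -0.63 (Lax1) to -0.18 (Pirb). Pirb had 6 and Pecam1 5 of 8 arrays under the floor, so the size of their falls was not measured. Genes of quiescence and FOXO activity had a median of 0 over 28 genes, with Pik3ip1 past the threshold with the block. Their extremes were apart: Klf4 had 1.27 and Cdkn2d, with 4 of 8 arrays under the floor, 1.05, and Ccng2 had -1.21.

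Of 25 activation and costimulation surface proteins 1, Pdcd1, passed with the block, and the median was 0.04; Cd200 had 1.61 (unadjusted p = 0.0174). Of 24 secreted chemokines and cytokines, Xcl1 passed both fits and Il12a the fit with the block, and the median was -0.01. Of 15 BCL2 family genes Bmf passed with the block (median -0.06), and of 23 regulators of B cell identity and plasma cells Prdm1 did (median -0.05). Homing and chemoattractant receptors had a median of -0.29 over 22 genes with 0 past the threshold in either fit and 3 at an unadjusted p under 0.05, all negative. In 3 growth lists 0 genes passed the threshold in either fit. Negative values were held by 23 of 28 ribosome biogenesis genes (median -0.15), 13 of 21 amino acid transport and folate-dependent metabolism genes (median -0.25) and 12 of 17 cholesterol synthesis genes (median -0.15), beside 57.3% of all genes. At an unadjusted p under 0.05 these lists held 0, 1 and 3 genes. In the list of 16 NuRD partners of Ikaros 12 had positive values (median 0.12), with 0 past the threshold in either fit and 3 at an unadjusted p under 0.05, all positive.

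**Figure D5:**
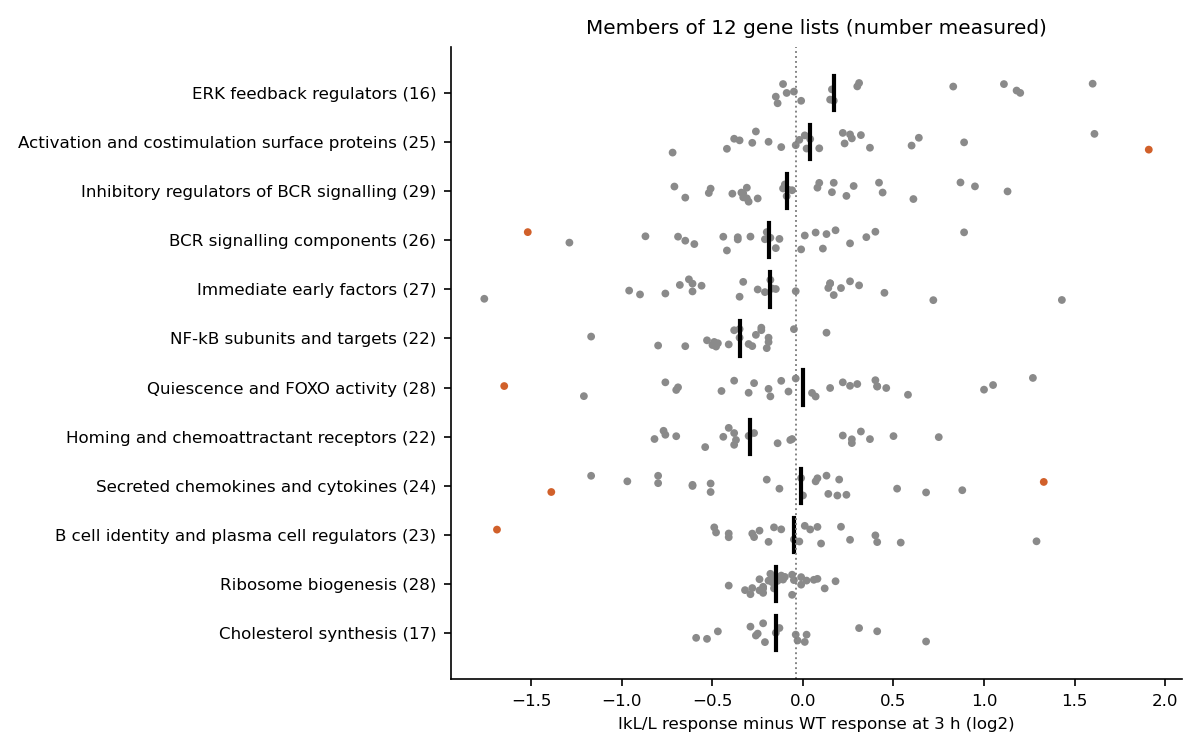
Contrast (horizontal axis, log2) of each measured gene in 12 lists; black bars are list medians, the dotted line is the median of all genes, -0.041, and orange points passed the threshold with the replicate block. Among these 12 lists the ERK feedback list has the highest median, 0.17, and the NF-kB list the lowest, -0.35.

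None of the other genes named in every case passed either fit, nor did Ikzf1 above. The activation markers Cd86 and Cd69 rose in both genotypes, with contrasts of 0.27 (SE 0.38) and 0.04 (SE 0.47). Cd86 read 8.93 and 8.57, then 10.05 and 9.84, in WT and 8.49 and 8.89, then 9.91 and 10.41, in IkL/L cells, so the genotypes overlapped at both points. The cyclin gene Ccnd2 had a contrast of -0.11 (SE 0.44), the CDK inhibitor gene Cdkn1b -0.08 (SE 0.37) and the inhibitory receptor genes Cd22 and Fcgr2b -0.09 (SE 0.36) and -0.33 (SE 0.19). The further Ccnd2 probe sets all had positive contrasts, from 0.19 to 0.96, and a further one of Cd22 had 0.26. The direction was thus not settled for Ccnd2 and Cd22. Egr1 and Myc had -0.56 (SE 0.51) and -0.63 (SE 0.36), and Ikzf3, the gene of the Ikaros relative Aiolos, 0.11 (SE 0.27). Adjusted p was between 0.93 and 0.999 for these 9 genes without the block. At these standard errors small differences in response were not detectable.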

How the data were processed

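Affymetrix mouse 3' expression arrays measured 100 ng of total RNA per array, labelled in 2 cycles per the labels' protocols. The deposited values are log2 signals, which per the submitters' processing notes come from RMA (version: not given in the sources used here). RMA normalizes the arrays together. Background calls were not used here.

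Of 45037 probe sets, 34945 had 1 gene symbol in the platform annotation, 932 several and 9160 none listed. For each of 18193 genes the brightest probe set by its mean on the 12 arrays stood for the gene. One mean for each of 6 groups was fitted in limma 3.58.1 (R 4.3.3) with empirical Bayes, and p-values were adjusted by Benjamini-Hochberg over all genes, with a threshold of 0.05. SE is the moderated standard error. Residual degrees of freedom were 6 without and 4 with a block for replicate number within genotype. Over the 6064 brightest genes, the deviations from group means of arrays that share a number had r from 0.546 to 0.619 within WT and from 0.354 to 0.49 within IkL/L, against 0.0263 to 0.31 across genotypes, so the numbers were taken as pairs within a genotype. A fold with an array of the lower group under 4.21 is a bound, with that array raised to 4.21. The fit was tested on simulated data with noise independent between arrays. This did not test the block on arrays that deviate together.

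Genes were named by a rule: the 15 largest contrasts in each direction among called genes, filled by the fit with the block and then by unadjusted p, without clone names (C730049O14Rik is named as 1 of the 7), called members of 40 lists (735 of 793 entries measured), and 10 fixed genes. The contrast, the lists and the rule were chosen with earlier results of these data known. Promoter windows are from RefSeq.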

Additional observations from a re-analysis of the deposited data

Results flagged for a closer look

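In 7 genes the test of the difference between the genotypes' responses passed the threshold without the block, and these are repeated here because the 2 genotypes differ under the same stimulus. The contrasts (IkL/L response minus WT response at 3 h, log2) were 2.07 for Axl (adjusted p = 0.0263 in limma), 1.88 for C730049O14Rik, 1.76 for Rflnb, 1.55 for Fjx1, 1.33 for Xcl1 and -1.47 for Il16 (each with adjusted p = 0.0419), and -2.17 for Tmem176b (adjusted p = 0.0263). Il16 was the only one of the 7 with all 8 arrays over the floor.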

How the results depend on the processing

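Other settings moved the count of genes with a different response from 7 to 27 with the replicate block within genotype, 11 with a replicate block shared by the genotypes, 2 with the mean of a gene's probe sets, 0 with every probe set that has 1 symbol, 2 without the dimmest genes (12128 left), 29 with values raised to the floor (3 of the 7 among them), 2 with only the 8 arrays, 1 with housekeeping scaling and 4 with every probe set, named or not, a setting chosen after seeing the data. Raised values have no spread, which makes small p-values. The share of positive calls was 71.4% of 7, 48.1% of 27 with the block within genotype, and 100.0% with housekeeping scaling, where it is the single call. With 1 array or 1 replicate left out the count ran from 0 to 1. Of the 7 genes' values under the other settings, 45 of 84 passed the threshold and 39 did not, and with arrays left out 83 of 84 did not. Of the values of the 20 genes called with a block alone, 32 of 240 passed under other settings and 1 of 240 with arrays left out. The other settings include the block within genotype that chose these 20 genes, so 1 pass of each gene was fixed beforehand. The fits with arrays left out had no block, so they did not test the calls made with it. None of the values of the 7 and the 20 genes changed sign, which their choice on the same arrays made likely beforehand.

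Pairing by the block within genotype also took the genes differing between genotypes from 205 to 717 without stimulus, from 310 to 935 at 3 h and from 112 to 467 at 12 h, and a shared block gave 400, 572 and 187. With values raised to the floor these were 58, 38 and 29, with housekeeping scaling 96, 141 and 41, and every probe set gave 344 without stimulus. Leaving arrays out gave 16 to 168 without stimulus (lowest without IkL/L replicate 2), 17 to 295 at 3 h (lowest without WT replicate 2) and 4 to 162 at 12 h (lowest without IkL/L replicate 2). The response count of 3529 in WT and 3719 in IkL/L became 5648 and 6150 with every probe set of 1 symbol, 6516 and 7007 with all probe sets, 2331 and 2418 with values raised to the floor, and 1771 to 3602 and 1963 to 3662 with arrays left out. Housekeeping scaling took the share of rising genes from 47.2% to 32.7% in WT and from 48.1% to 34.0% in IkL/L. The cause was not tested.

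Contrasts of genes that did not pass changed sign: with the mean of all probe sets Cdkn1b had 0.27, Cd22 0.08 and Ccnd2 0.37. With arrays left out Ikzf3 ran from -0.14 to 0.37, Cd69 from -0.38 to 0.47, Cdkn1b from -0.50 to 0.35, Cd22 from -0.29 to 0.10, Ccnd2 from -0.41 to 0.20 and Egr1 from -1.28 to 0.16. The median contrast of all genes was -0.028 with housekeeping scaling and -0.006 after quantile normalization. With 2 arrays per group and no background call, genes near the floor are the least certain.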

Other observations

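Probe sets without a single gene symbol were not part of the comparisons. With all 45037 probe sets in 1 fit, 2 of these 10092 passed the threshold in limma without the block and 5 with it, all 5 with positive contrasts. The probe set 1418809_at read 5.79 and 6.41 in unstimulated WT cells and between 2.64 and 3.25 on the other 6 arrays of the contrast (contrast 2.44, adjusted p = 0.0402 without and 0.0192 with the block). In the same way 1440274_at read 6.01 and 6.49 in unstimulated WT cells and 3.79 or less on the others (contrast 2.37, adjusted p = 0.0402 and 0.0206). Both have the form of Rflnb and Rnf125. By contrast 1441843_s_at had the form of Fjx1, with 5.47 and 5.18 in stimulated IkL/L cells and 3.53 or less on the other 6 arrays (contrast 1.58, adjusted p = 0.0695 and 0.0447). The contrasts of 1440314_at and 1436933_at were 1.76 and 1.60.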
